A study of Mus musculus with 8 samples.

Results

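The TNF superfamily was taken as every gene of the deposited table whose GENCODE M21 symbol starts with Tnfsf or Tnfrsf and a digit, which gave 32 of 46517 genes. Of these, 11 code for ligands (Tnfsf) and 20 for receptors (Tnfrsf), and 1, Tnfsf13os, is an antisense transcript that codes for no family protein. Whole liver RNA was compared between males of the C57BL/6 strain, 4 of them MøFoxO1-KO mice and 4 their WT littermates. Mice of both genotypes carried loxP sites in both FoxO1 alleles and were put on the NASH-inducing diet at an age of 6 weeks. They ate it for 25 weeks, and at 31 weeks the liver was taken after a fast of 16 hours. MøFoxO1-KO mice also carried Cre under the Lyz2 promoter, which is active in macrophages, monocytes and neutrophils, whereas the WT mice had no Cre, so an effect of Cre itself cannot be told apart from that of FoxO1 loss. In whole liver, fewer cells of a type and less RNA per cell cannot be told apart either.

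Ligands of this family are mostly membrane proteins that act as trimers and can be shed by proteases, and each binds receptors with cysteine-rich repeats outside the cell. Receptors with a death domain, such as those for TNF, FAS ligand and TRAIL, can signal through FADD and caspase-8 to cell death, while most members recruit TRAF adaptors and turn on NF-κB. In the liver the family is known for hepatocyte death, for inflammation driven by macrophages and, through TWEAK and its receptor, for the growth of progenitor and ductular cells.

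Libraries held 15253218 to 18025481 counts, which bounds the precision for genes with few reads. Values of single mice are given in the order of their replicate numbers, from 22 to 25 for WT and from 26 to 29 for MøFoxO1-KO mice. The log2 fold change of MøFoxO1-KO over WT is written log2FC, with its standard error (SE) and the P value of edgeR adjusted after Benjamini and Hochberg. Foxo1, the targeted gene, had 328 to 467 counts in WT and 253 to 448 in MøFoxO1-KO livers, with a log2FC of -0.17 (adjusted P = 0.686 by edgeR). The study reported that FoxO1 could not be detected in hepatic macrophages of MøFoxO1-KO mice and was unchanged in their hepatocytes. Whole liver RNA holds both cell types, so this value does not measure the deletion in macrophages. The summed level of 7 hepatocyte markers was between 60325 and 106082 CPM (counts relative to library size after TMM scaling) in every liver. WT replicate 23 stood apart from the other mice, as it had the lowest sum in 5 of 11 marker lists, namely those of macrophages (187 CPM), B and plasma cells (15.5), dendritic cells (6.59), endothelial cells (96.4) and stellate cells (265). MøFoxO1-KO replicate 29 had the highest sum in 5 of the 11 lists, among them macrophages (891), T cells (7.91), NK cells (9.96), neutrophils (9.07) and stellate cells (490.5). In MøFoxO1-KO replicate 28 the macrophage sum was 199 CPM, inside the WT range of 187 to 311, while the other MøFoxO1-KO livers ranged from 316 to 891.

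All 20 receptors and 10 of the 11 ligands had at least 1 count. Only 3 ligands had counts in every mouse, against 16 receptors. A filter on low counts, which asks for about 10 counts in at least 4 libraries, left 2 ligands, Tnfsf12 and Tnfsf10, as well as 15 receptors and Tnfsf13os. The family held 22332 counts over the 8 mice, or 0.0170% of all counts, and Tnfrsf1a alone held 44.9% of them.

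A gene was called when its P value from edgeR's quasi-likelihood test, after adjustment over all 13278 tested genes, was under 0.05 and its log2FC lay beyond 1.5 in either direction. None of these 18 genes was called, while 0.188% of all tested genes were, 0.0527% as higher and 0.136% as lower. With the adjusted P alone, 0 members passed as well, against 0.294% of all tested genes (0.121% higher and 0.173% lower). DESeq2, which called 1.08% of all tested genes, and limma-voom also called no member. At an unadjusted P under 0.05 without a limit on the fold change, 3 receptors, Tnfrsf12a, Tnfrsf1b and Tnfrsf10b, were lower in MøFoxO1-KO livers by each of the 3 methods, and no member was higher. In edgeR 16.7% of all tested genes passed that limit, 8.65% as higher and 8.06% as lower, with 17.5% in DESeq2 and 16.1% in limma-voom. The 3 of 18 members are also 16.7%. These genes were not stable when 1 mouse was left out, with 0 members at that limit without WT replicate 24, only Tnfrsf12a without WT replicate 22 or MøFoxO1-KO replicate 29, and a higher member in 4 of 8 such fits (Tnfrsf14, Tnfrsf25, Tnfrsf11b or Tnfrsf22). No member had groups that did not overlap, against 9.71% of all tested genes.

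Tnfrsf12a and Tnfrsf1b are shown by the 250 bases before their start sites, since they are the most abundant of these 3 receptors. The sequences come from RefSeq on GRCm38.p6, written 5′ to 3′ on the strand of the gene, and capitals mark GC boxes (GGGCGG, either strand). They lie directly before the first base of each gene in the deposited table, on the minus strand at chr17:23677450-23677699 and chr4:145246871-145247120.
Tnfrsf12a: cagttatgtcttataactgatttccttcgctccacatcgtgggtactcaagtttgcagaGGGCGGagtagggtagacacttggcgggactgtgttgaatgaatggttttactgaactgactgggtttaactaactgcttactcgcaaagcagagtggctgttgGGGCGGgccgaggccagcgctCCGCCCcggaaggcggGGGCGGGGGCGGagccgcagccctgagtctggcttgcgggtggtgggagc
Tnfrsf1b: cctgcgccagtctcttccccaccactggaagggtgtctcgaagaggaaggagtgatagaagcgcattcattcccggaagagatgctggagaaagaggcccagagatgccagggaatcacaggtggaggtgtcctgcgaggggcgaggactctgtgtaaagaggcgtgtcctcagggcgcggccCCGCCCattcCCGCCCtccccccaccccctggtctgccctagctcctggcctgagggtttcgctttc

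Both stretches are rich in G and C, at 58.8% and 62.8%. The table held promoters for 24 of the 32 members, as 28 windows. A search of both strands found the GC box in 11 of these windows, and in 32.7% of all 32851 windows of the same length. The core letters bound by forkhead proteins, TGTTTAC, were in 0 of the 28 windows and in 3.17% of all. An NF-κB motif was in the windows of Tnfrsf9 and Tnfrsf25 and in 1.41% of all, and an AP-1 motif, TGANTCA, was in those of Tnfrsf8, Tnfrsf9, Tnfsf13, Tnfsf13b and Tnfsf14 and in 6.75% of all. In Tnfrsf9, the receptor that activated T cells induce, the NF-κB letters end 34 bases and the AP-1 letters 9 bases before a start site. Motifs of different kinds did not overlap, while GC boxes overlapped each other by 1 base in Tnfrsf19 and Tnfrsf13c, and a match describes the letters in the window only.

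Among the ligands, Tnfsf12 (ENSMUSG00000097328, chromosome 11, 69686250 to 69695849 on GRCm38), which codes for TWEAK, the protein that binds the receptor encoded by Tnfrsf12a, had the highest level. It had 191, 204, 196 and 230 counts in WT and 244, 172, 225 and 159 in MøFoxO1-KO mice. Both the highest and the lowest count were in MøFoxO1-KO mice, and the groups overlapped. Normalized counts, which are counts scaled to a common library size, were 197 ± 23.2 for WT and 208 ± 23.1 for MøFoxO1-KO livers (SD, n = 4), a log2FC of 0.07 ± 0.14 (SE, adjusted P = 0.83 by edgeR). Tnfsf12 shares 48.3% of its exon bases with the readthrough gene Tnfsfm13, so its count depends on how shared reads were assigned, which is not given in the sources used here.

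Tnfsf10 (ENSMUSG00000039304, chromosome 3, 27317028 to 27342427) codes for TRAIL, which can kill cells through the death receptor of Tnfrsf10b. Its counts were 126, 138, 96 and 73 in WT and 121, 65, 151 and 68 in MøFoxO1-KO mice. Each genotype held both low and high mice, and the groups overlapped. Normalized counts of 104 ± 28.4 in WT and 103 ± 32.4 in MøFoxO1-KO livers (SD, n = 4) gave a log2FC of -0.00 ± 0.27 (SE, adjusted P = 0.997 by edgeR), and several alternatives turned its sign.

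Between these ligands the order of levels was clear. Tnfsf12 was at 8.15 CPM per kb of exon as a mean of the 8 mice and Tnfsf10 at 1.20, and their ranges did not overlap. Tnfsf13b (BAFF), a survival factor of B cells, came next at 0.451, with 9, 0, 13 and 1 counts in WT and 6, 8, 4 and 13 in MøFoxO1-KO mice. Its range overlapped that of Tnfsf10 through MøFoxO1-KO replicate 29, at 0.954, while its other mice lay below the lowest Tnfsf10 level of 0.841.

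The other 8 ligands were close to or under the limit of detection at this depth. Tnfsf13 (APRIL), which acts on plasma cells, had 1 to 11 counts per mouse, and 60.0% of its exon bases are shared with Tnfsfm13. Tnfsf14 (LIGHT), which binds the receptors of Tnfrsf14 and Ltbr, had 0 to 7 counts, and Tnfsf9, the ligand of 4-1BB, had 0 to 7 as well. Tnfsf15 (TL1A) had 8 counts over all mice, Tnfsf8 (CD30 ligand) 4 and Tnfsf11 (RANKL), the osteoclast factor, 3. All 6 counts of Tnfsf18 (GITR ligand) were in MøFoxO1-KO replicate 28. Tnfsf4 (OX40 ligand) had 0 counts among 131147672, which allows up to 0.0229 CPM, for counting error only.

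**Figure D1:**
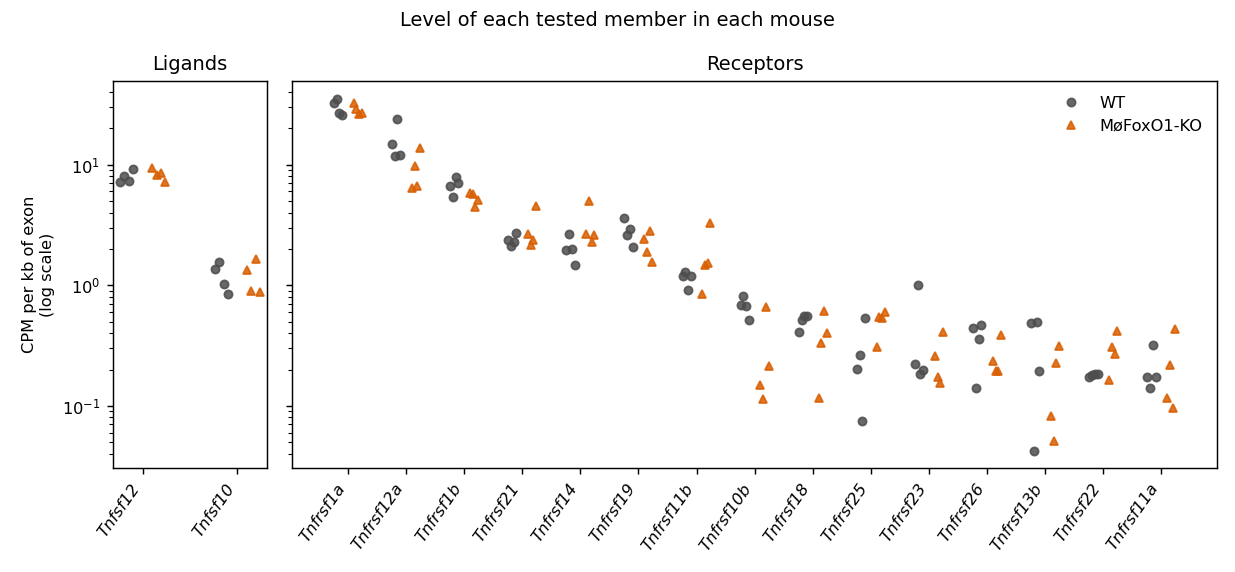
Level of the 2 ligands and 15 receptors that passed the filter, in CPM per kb of exon on a log axis, with 1 point per mouse (gray circles, WT; orange triangles, MøFoxO1-KO). Tnfrsf1a lies above the other genes in every mouse, between 25.7 and 35.3, and the genotypes overlap for each gene.

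Tnfrsf1a (ENSMUSG00000030341, chromosome 6, 125349362 to 125362484 on GRCm38), the death domain receptor of TNF on most cell types, was the most abundant receptor. It had 1480, 1528, 1241 and 1097 counts in WT and 1431, 1027, 1192 and 1022 in MøFoxO1-KO mice. Counts of both genotypes spanned about the same range. Normalized counts were 1282 ± 195 in WT and 1218 ± 111 in MøFoxO1-KO livers (SD, n = 4), and the log2FC was -0.07 ± 0.13 (SE, adjusted P = 0.825 by edgeR). At 29.4 CPM per kb its range did not overlap that of Tnfrsf12a, next in order at 12.4.

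Tnfrsf12a (ENSMUSG00000023905, chromosome 17, 23675447 to 23677449 on GRCm38) codes for FN14, the TWEAK receptor, which is induced in injured epithelium. WT mice had 251, 191, 414 and 191 counts and MøFoxO1-KO mice had 105, 128, 110 and 193. Of the MøFoxO1-KO mice 3 lay below every WT mouse, while replicate 29 lay between the WT mice. Normalized counts were 249 ± 91.5 in WT and 143 ± 53.9 in MøFoxO1-KO livers (SD, n = 4). The log2FC of -0.80 ± 0.30 (SE) did not pass the test (adjusted P = 0.234 by edgeR). The difference was largest without MøFoxO1-KO replicate 29, at -1.06, and was -0.52 without WT replicate 24, the mouse with the most Tnfrsf12a counts. Its unadjusted P in edgeR or the alternative tool was under 0.05 in 12 of 15 alternatives, and its adjusted P ranged from 0.143 to 0.458. Its ligand gene Tnfsf12 differed by less than its standard error.

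Tnfrsf1b (ENSMUSG00000028599, chromosome 4, 145213463 to 145246870), the TNF receptor of immune and endothelial cells, has no death domain and signals through TRAF2. It had 447, 345, 535 and 440 counts in WT and 378, 299, 297 and 283 in MøFoxO1-KO mice. The groups overlapped through WT replicate 23, the lowest of its group. Normalized counts were 422 ± 63.9 in WT and 329.5 ± 37.7 in MøFoxO1-KO livers (SD, n = 4), or 78.0% of the WT mean. The log2FC was -0.36 ± 0.14 (SE, adjusted P = 0.249 by edgeR), and it was -0.45 without WT replicate 23. The unadjusted P was under 0.05 in 10 of 15 alternatives.

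Tnfrsf10b (ENSMUSG00000022074, chromosome 14, 69767472 to 69784403), the TRAIL receptor, had 38, 43, 38 and 27 counts in WT and 8, 5, 36 and 10 in MøFoxO1-KO mice. MøFoxO1-KO replicate 28 lay among the WT mice, and the other 3 MøFoxO1-KO mice lay below all of them. With means of 35.0 ± 6.31 and 14.7 ± 13.1 normalized counts (SD, n = 4), the log2FC was -1.22 ± 0.50 (SE, adjusted P = 0.264 by edgeR). Without replicate 28 it was -2.05 and Tnfrsf10b was called (adjusted P = 0.0441 by edgeR). That fit called 82 of 13490 tested genes, against 25 of 13278 with all mice. It was the only call of a member under these limits in any alternative. Over the alternatives the adjusted P of Tnfrsf10b reached 0.529 (edgeR without MøFoxO1-KO replicate 27). Its unadjusted P in edgeR or the alternative tool was under 0.05 in 8 of 14. Replicate 28 was also the MøFoxO1-KO liver with the lowest macrophage sum, and the part of either measure in the other was not tested.

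Markers of other cells in the liver differed between the genotypes for some genes and not for others. Over all tested genes, 16.7% had an unadjusted P under 0.05 in edgeR, which called 0.188%, and DESeq2 called 1.08%. The macrophage list summed to 187 to 311 CPM in WT and 199 to 891 in MøFoxO1-KO livers. Of its 10 members, 9 had a positive log2FC, 5 of them at an unadjusted P under 0.05 in edgeR, which called none, while DESeq2 called 2, Timd4 and Marco. Timd4 had 53.2 ± 5.24 normalized counts in WT and 226 ± 138 in MøFoxO1-KO livers (SD, n = 4, adjusted P = 0.0968 by edgeR and 2.15e-04 by DESeq2). Marco had 38.7 ± 34.0 and 1409 ± 1219 (SD, n = 4, adjusted P = 0.0870 by edgeR and 4.60e-04 by DESeq2), and its groups overlapped. The negative member was Lyz2, whose promoter drives Cre, with a log2FC of -0.77 (adjusted P = 0.586 by edgeR). Of 6 markers of lipid-associated macrophages 5 had a negative log2FC, 3 of them at that limit, with 1 call by edgeR and 3 by DESeq2. Gpnmb, a glycoprotein of these cells, was the gene called by edgeR and fell from 69.98 ± 51.5 to 3.79 ± 2.74 normalized counts (SD, n = 4, adjusted P = 0.0382 by edgeR). Trem2, their lipid receptor, had 43.6 ± 34.9 in WT and 2.82 ± 2.77 in MøFoxO1-KO livers (SD, n = 4, adjusted P = 0.0983 by edgeR and 2.82e-04 by DESeq2). Gpnmb and Trem2 passed the filter through the WT mice only, since no MøFoxO1-KO mouse had over 8 counts of Gpnmb or 7 of Trem2. For Gpnmb and Trem2 the genotypes did not overlap, with MøFoxO1-KO mice lower, as for 4.71% of all tested genes. Those of Timd4 did not overlap either, with MøFoxO1-KO mice higher, as for 5.0% of all tested genes.

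The sum of the lipid-associated macrophage list does not show this, being 93.4 to 157 CPM in WT and 79.9 to 128 in MøFoxO1-KO livers, since 64.2% of it in WT livers was Spp1 (osteopontin), whose groups overlapped. Spp1 also stands in the cholangiocyte and ductular list and made up 85.8% of that sum in WT livers. All 6 genes of the latter list had a negative log2FC, none at that limit, with sums of 80.2 to 107 in WT and 60.4 to 92.1 in MøFoxO1-KO livers. Among 8 stellate cell and myofibroblast markers, 4 were positive and 4 negative, 2 of the latter at that limit in edgeR. Over all tested genes, 8.06% were lower at that limit. The 2 stellate cell markers at that limit were the collagen genes Col1a1 and Col3a1. Col1a1 had 372 ± 114 and 153 ± 89.9 normalized counts (SD, n = 4, adjusted P = 0.193 by edgeR). Its groups did not overlap, with MøFoxO1-KO mice lower, as for 4.71% of all tested genes. Col3a1 had 806 ± 285 and 477 ± 196 (SD, n = 4, adjusted P = 0.250 by edgeR). Their list summed to 265 to 433 CPM in WT and 299.7 to 490.5 in MøFoxO1-KO livers, of which Dcn (decorin) was 56.9% in WT. All 7 endothelial markers had a positive log2FC, with a median of 0.36 and none at that limit. Endothelial sums were 96.4 to 212 in WT and 172 to 254 in MøFoxO1-KO livers, and neutrophil sums 3.06 to 8.94 and 2.40 to 9.07. The part of any of these markers in the receptor levels was not tested.

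**Figure D2:**
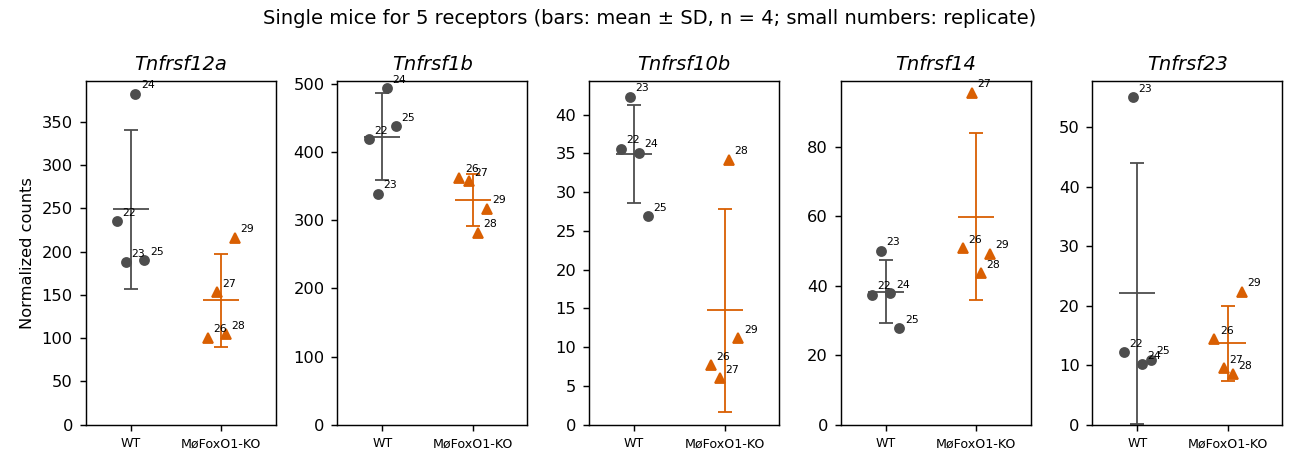
Normalized counts of 5 receptors in single mice (points, labelled by replicate), with the mean and SD of each genotype (n = 4). MøFoxO1-KO replicate 28 lies among the WT mice for Tnfrsf10b, while MøFoxO1-KO replicate 27 for Tnfrsf14 and WT replicate 23 for Tnfrsf23 lie far above the others of their group.

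The next receptors in order of level were Tnfrsf21, Tnfrsf14 and Tnfrsf19, at 2.66, 2.58 and 2.49 CPM per kb, with overlapping ranges. Tnfrsf21 codes for the death receptor DR6. It had 151, 127, 147 and 161 counts in WT and 166, 108, 149 and 243 in MøFoxO1-KO mice. Normalized counts were 141 ± 14.8 and 175 ± 65.6 (SD, n = 4). The MøFoxO1-KO mean was higher mainly through replicate 29, the mouse that was also highest in 5 marker lists, without which the log2FC was 0.03 in place of 0.32 ± 0.24 (SE). With all mice it did not pass the test (adjusted P = 0.538 by edgeR).

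Tnfrsf14 codes for HVEM, which binds LIGHT and the lymphocyte inhibitor BTLA. WT mice had 40, 51, 41 and 28 counts, and MøFoxO1-KO mice had 53, 80, 46 and 44. Replicate 27 was the highest of all mice, and the means were 38.3 ± 9.13 and 59.8 ± 24.02 normalized counts (SD, n = 4). The log2FC of 0.64 ± 0.31 (SE, adjusted P = 0.346 by edgeR) was 0.33 without that mouse. Tnfrsf19 (TROY) is an orphan receptor known from epithelial progenitors and stroma. Its counts were 304, 209, 249 and 165 in WT and 199, 123, 231 and 109 in MøFoxO1-KO mice, and 2 of the MøFoxO1-KO mice lay below all WT mice. With 221 ± 50.3 and 169.7 ± 43.5 normalized counts (SD, n = 4), the log2FC was -0.38 ± 0.22 (SE, adjusted P = 0.424 by edgeR).

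The osteoclast pair of the family was present at low levels. Tnfrsf11b codes for osteoprotegerin, a soluble decoy of RANKL, and had 46 to 61 counts in WT and 41 to 136 in MøFoxO1-KO mice, with the highest count in replicate 29. Its means were 53.1 ± 7.49 and 82.5 ± 48.6 normalized counts (SD, n = 4). The log2FC of 0.63 ± 0.37 (SE, adjusted P = 0.426 by edgeR) was 0.15 without that mouse. Tnfrsf11a (RANK) had 14 to 34 counts in WT and 10 to 38 in MøFoxO1-KO mice, and a log2FC of 0.09 ± 0.51 (SE, adjusted P = 0.947 by edgeR) that was -0.50 without MøFoxO1-KO replicate 29 and 0.41 without WT replicate 24.

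Tnfrsf22, Tnfrsf23 and Tnfrsf26 lie side by side on chromosome 7, between 143607685 and 143685872 on GRCm38, and are receptors of the mouse without a close human counterpart, the first pair being TRAIL decoys. Tnfrsf22 and Tnfrsf23 share sequence: 17.3% of the 50-base windows of Tnfrsf22 transcripts are also in Tnfrsf23, so reads may be split between them. Tnfrsf22 had 13 or 14 counts in each WT mouse and 12, 18, 20 and 26 in MøFoxO1-KO mice, with a log2FC of 0.66 ± 0.35 (SE, adjusted P = 0.379 by edgeR). Tnfrsf23 had 13, 56, 11 and 11 counts in WT and 15, 8, 9 and 20 in MøFoxO1-KO mice. Its direction rested on WT replicate 23, the highest of all mice, since the log2FC of -0.68 ± 0.62 (SE, adjusted P = 0.624 by edgeR) was 0.30 without that mouse. In the same mouse Tnfrsf22 had 13 counts. Tnfrsf26 had 7 to 23 counts in WT and 8 to 17 in MøFoxO1-KO mice (log2FC -0.47 ± 0.44 (SE), adjusted P = 0.630 by edgeR).

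Receptors of lymphocytes were near the lower end of what was counted. Tnfrsf13b (TACI), a receptor of BAFF and APRIL on B cells, had 24, 2, 25 and 9 counts in WT and 4, 2, 11 and 13 in MøFoxO1-KO mice. Mice of both genotypes had as few as 2 counts, and the log2FC was -0.85 ± 0.73 (SE, adjusted P = 0.599 by edgeR). Tnfrsf13c, the BAFF receptor proper, had 12, 0, 8 and 7 counts in WT and 7, 6, 8 and 11 in MøFoxO1-KO mice, and Tnfrsf17 (BCMA), the plasma cell receptor, had 16 in all. All 7 B and plasma cell markers passed the filter, with sums of 15.5 to 65.1 CPM in WT and 27.6 to 64.9 in MøFoxO1-KO livers. WT replicate 23 had the lowest of these sums, no Tnfrsf13c count and the fewest Tnfrsf13b counts together with MøFoxO1-KO replicate 27.

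Receptors of the family on T cells were sparse too. Tnfrsf18 (GITR) had 11 to 15 counts in WT and 3 to 16 in MøFoxO1-KO mice, and its log2FC was -0.47 ± 0.46 (SE, adjusted P = 0.653 by edgeR). It shares 27.2% of its exon bases with the antisense gene Gm16008, and without the strand setting their reads cannot be told apart. Tnfrsf25 (DR3), the receptor of TL1A, had 3 to 20 counts in WT and 12 to 21 in MøFoxO1-KO mice and the highest log2FC of a tested member, 0.89 ± 0.52 (SE, adjusted P = 0.425 by edgeR). Without WT replicate 25 that was 1.45, and without WT replicate 24 it was 0.57. Tnfrsf4 (OX40) had 1 to 14 counts and Tnfrsf8 (CD30) 2 in all. Tnfrsf9 (4-1BB) had 2, 0, 8 and 2 counts in WT and 0, 0, 1 and 0 in MøFoxO1-KO mice, a ratio of 0.0819 with an exact interval of 0.00191 to 0.553 (95%, counting error only), and WT replicate 24 held most of the reads. The 4 tested T cell markers had positive log2 fold changes. All 7 listed T cell markers, tested or not, summed to 2.49 to 5.48 CPM in WT and 4.32 to 7.91 in MøFoxO1-KO livers, with Cd28 at 0.

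The 14 members under the filter had 54, 4, 64 and 39 counts together in WT and 36, 27, 52 and 57 in MøFoxO1-KO mice. WT replicate 23 stood apart with 4 counts, 3 of Tnfsf13 and 1 of Tnfrsf4, although its total count was not low. In the fit without a filter 31 members could be tested, none was called, against 0.507% of all genes, and 4 were lower at an unadjusted P under 0.05 in edgeR, where 11.6% of 23665 genes passed that limit, Tnfrsf9 being added to the 3 receptors above.

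**Figure D3:**
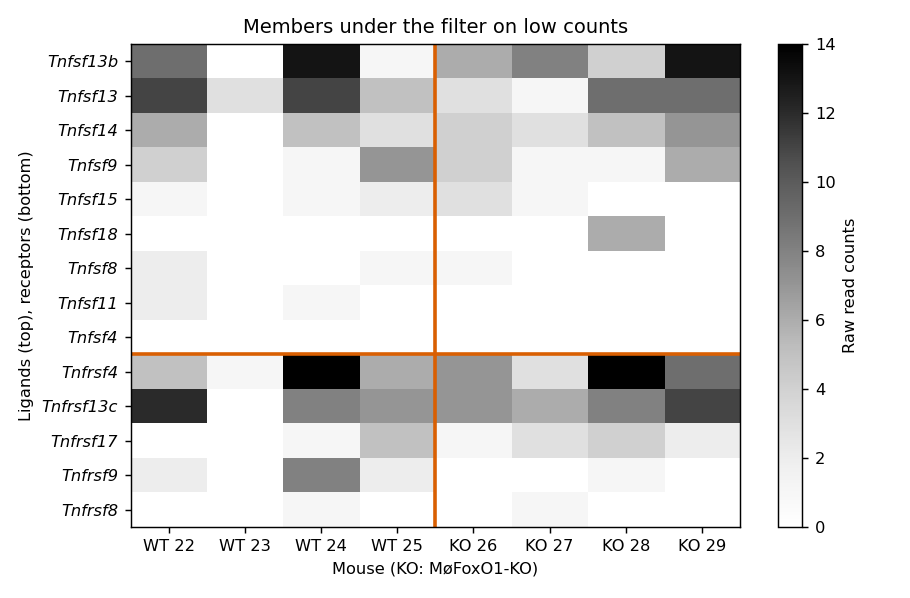
Raw read counts of the 14 members under the filter on low counts, with ligands above the horizontal line and receptors below it, WT mice left and MøFoxO1-KO (KO) mice right of the vertical line. Darker cells hold more reads, up to 14, and the column of WT replicate 23 is nearly blank, with 4 counts in all.

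The antisense transcript Tnfsf13os had 11 to 15 counts in WT and 13 to 20 in MøFoxO1-KO mice, with a log2FC of 0.53 and a standard error of 0.33 (adjusted P = 0.445 by edgeR). It overlaps exons of Tnfsf13 on the opposite strand, over 19.9% of its own length. Without knowledge of the strand setting its reads cannot be assigned to either gene with certainty.

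As a group, the 15 tested receptors had 9 negative and 6 positive log2 fold changes with a median of -0.36, and the 2 tested ligands had a median of 0.04, where all tested genes had a median of -0.01. The receptor median was not stable, being -0.00 without a filter, 0.09 over genes with at least 10 counts in every mouse and -0.05 without WT replicate 23. Summed receptor levels ranged from 139 to 166 CPM in WT and from 131 to 150.4 in MøFoxO1-KO livers after TMM scaling, with overlap. Divided by total counts instead, they ranged from 143 to 186 in WT and from 126 to 141 in MøFoxO1-KO livers, without overlap, so whether the groups overlapped depended on the scaling. Summed ligand levels overlapped on both scales.

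**Figure D4:**
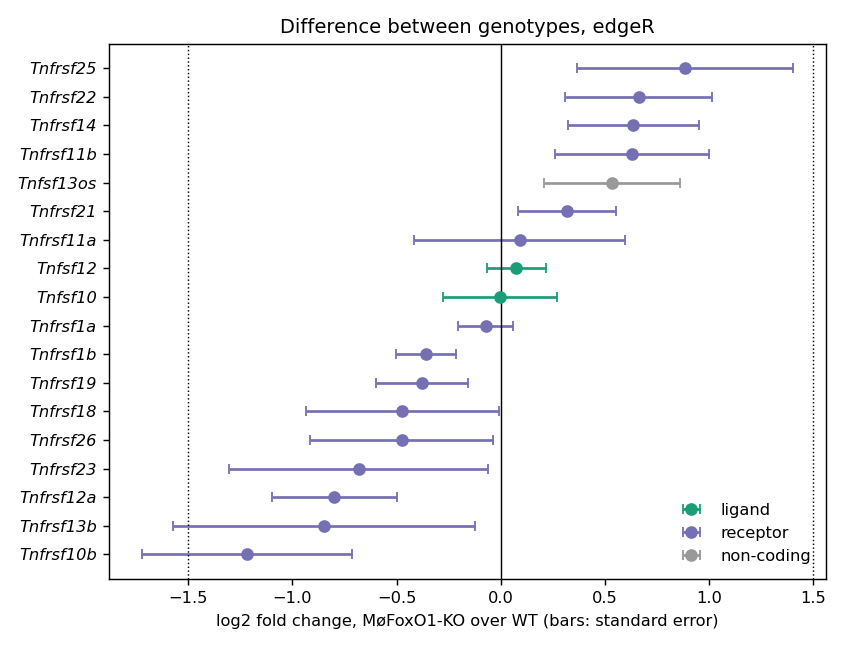
Log2 fold change of MøFoxO1-KO over WT for the 18 tested members by edgeR, with standard errors as bars and dotted lines at the limit of 1.5. Values run from -1.22 for Tnfrsf10b to 0.89 for Tnfrsf25, and both ligands lie close to 0.

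Members of the superfamily with other symbols were examined in the same fit. Of 7 such ligands 2 were tested, and Ltb, the membrane anchor of the lymphotoxin that acts in lymphoid tissue, had 33, 14, 40 and 34 counts in WT and 26, 50, 69 and 98 in MøFoxO1-KO mice. Its log2FC of 1.16 ± 0.45 (SE) did not pass the test (adjusted P = 0.241 by edgeR), and it was 0.79 without MøFoxO1-KO replicate 29. Tnf itself did not pass the filter, with 7, 1, 14 and 6 counts in WT and 4, 8, 23 and 18 in MøFoxO1-KO mice. Relt, an orphan receptor under the filter, had 4, 0, 8 and 1 counts in WT and 15, 15, 8 and 18 in MøFoxO1-KO mice. In the fit without a filter its log2FC was 2.23 (unadjusted P = 0.00752, adjusted P = 0.207 by edgeR). Of 8 receptors with other symbols 6 were tested, 4 with positive and 2 with negative log2 fold changes from -0.22 to 0.96, and none of these 6 had an unadjusted P under 0.05 in edgeR. With 1 mouse left out, 6 of 8 fits held 1 receptor at that limit, Cd40 without MøFoxO1-KO replicate 26 and Relt in the others. Relt reached 10 counts in MøFoxO1-KO mice only, so it entered those fits through the group where it was high. In these 6 fits, 13.1% to 16.9% of all tested genes passed that limit in edgeR. Ltbr, the lymphotoxin β receptor, at 54.6 CPM per kb exceeded Tnfrsf1a, and Fas, the death receptor of FAS ligand, was at 12.0.

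Signaling genes downstream of the receptors were likewise described by counts. All 21 adaptors and kinases were tested, 7 with positive and 14 with negative log2 fold changes and a median of -0.07. Of these, only Traf3, a brake on the noncanonical NF-κB pathway, had an unadjusted P under 0.05 in edgeR. That is 4.76% of the list, against 16.7% of all tested genes. Traf3 had 215 normalized counts in WT and 145 in MøFoxO1-KO livers and a log2FC of -0.57 ± 0.20 (SE, adjusted P = 0.212 by edgeR). Among 15 ubiquitin enzymes and brakes, 8 were positive and 7 negative with a median of 0.06. Only Tnip1, a partner of the deubiquitinase A20, or 6.67% of the list, passed the unadjusted limit. Its log2FC was -0.53 ± 0.17 (SE, adjusted P = 0.188 by edgeR).

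The 5 NF-κB subunits all had negative log2 fold changes, with a median of -0.25, and none was called. Of all 13278 tested genes, 6861 had a negative log2FC. Nfkb2, the precursor of the noncanonical subunit, was at -0.46 ± 0.17 (SE, adjusted P = 0.219 by edgeR). Rel, the subunit of lymphocytes and myeloid cells, had 77, 84, 128 and 97 counts in WT and 62, 58, 70 and 61 in MøFoxO1-KO mice. After normalization the groups did not overlap for Rel, with MøFoxO1-KO mice lower, as for 4.71% of all tested genes, with a log2FC of -0.49 ± 0.20 (SE, adjusted P = 0.269 by edgeR). All 5 remained negative under each scaling, and 4 of 5 without WT replicate 24 or without MøFoxO1-KO replicate 26. In edgeR no subunit had an unadjusted P under 0.05 without WT replicate 24, MøFoxO1-KO replicate 26 or MøFoxO1-KO replicate 27. Of 5 genes that process ligands and receptors, 2 were positive and 3 negative with a median of -0.05, and Furin, the protease that cleaves BAFF and APRIL, was at -0.42 ± 0.18 (SE, adjusted P = 0.273 by edgeR). Adam17, the sheddase of TNF and its receptors, was at 0.08 ± 0.15 (SE, adjusted P = 0.832 by edgeR).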

How the data were processed

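RNA-Seq of whole liver was analyzed in 8 mice. The authors deposited raw read counts per Ensembl gene with summed exon lengths, in the layout of featureCounts. The submitters' processing notes name STAR, featureCounts and mm10, while the versions, the strand setting and the treatment of shared reads are not given in the sources used here. Libraries were prepared from polyadenylated RNA, and replicates were not pooled. Symbols came from GENCODE M21 (GRCm38), in which 22 of the 32 members have the deposited coordinates, and the other 10 differ. The 512 genes without a symbol stayed in the fit.

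Counts were filtered with filterByExpr (minimum count 10, minimum total 15), scaled by TMM and fitted over all 13278 remaining genes with edgeR 4.0.16 in R 4.3.3 (quasi-likelihood, Benjamini-Hochberg adjustment). The limits for a call were those of the study, an adjusted P of 0.05 and a log2 fold change of 1.5 in either direction. Alternatives were DESeq2 1.42.0 and limma-voom (limma 3.58.1) on the same genes, a robust fit, other scalings, filters and thresholds, and leaving out each mouse. Methods were tested on simulated data whose changed genes differed by more than any tested member did. This does not show how often differences as small as those of the members would be found.

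Named genes were all members, with counts of each mouse for the 3 highest ligands, the 6 highest receptors and members at an unadjusted P under 0.05, and genes of pathway lists at that limit. Fas, Ltbr, Relt, Tnf, Cd40, Adam17, Timd4, Marco, Lyz2, Gpnmb, Trem2, Spp1, Dcn, Col1a1, Col3a1, and the counts of each mouse for Tnfrsf9, Tnfrsf13b, Tnfrsf13c, Tnfrsf22, Tnfrsf23, Ltb and Rel, were added after seeing their values. Members and lists were chosen with earlier results of these data known. P values weigh the difference between genotypes against the spread between 4 mice per genotype, and edgeR also draws on the spread of the other tested genes.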

Additional observations from a re-analysis of the deposited data

Results flagged for a closer look

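In 36 sets of 4 mice (18 tested members in each genotype), 2 held a mouse far from the other 3 by Dixon's test, and chance gives about 1 in 20. Tnfrsf23 had 55.1 normalized counts in WT replicate 23, against 10.2 to 12.2 in the other WT mice. Tnfrsf14 had 95.5 normalized counts in MøFoxO1-KO replicate 27, against 43.7 to 50.8 in the other MøFoxO1-KO mice.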

How the results depend on the processing

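The number of genes called over the whole table was 25 and varied widely, being 144 with DESeq2, 13 with limma-voom, 120 without a filter on low counts, 39 without a limit on the fold change, 2219 at an unadjusted P under 0.05 and between 3 and 82 with 1 mouse left out. The 82 calls came without MøFoxO1-KO replicate 28. Of the members 0 were called, except for 1, Tnfrsf10b, without MøFoxO1-KO replicate 28 (a range of 0 to 1 with 1 mouse left out), and 3 passed an unadjusted P under 0.05, a count that ranged from 0 to 3 with 1 mouse left out and did not keep its genes or direction. The receptor median was -0.0023 without a filter and 0.0856 over genes with at least 10 counts in every mouse, and -0.34 to -0.0488 with 1 mouse left out, while the ligand median stayed between -0.06 and 0.13.

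Of the 18 tested members, 14 kept their direction in every alternative that tested them. The log2 fold change of Tnfsf10 was 0.0046 with DESeq2, 0.0127 with limma-voom, 0.0042 with the size factors of DESeq2 in edgeR, 0.0235 with upper-quartile scaling, 0.0028 over genes with at least 10 counts in every mouse and -0.19 to 0.15 with 1 mouse left out. That of Tnfrsf11a was -0.12 with limma-voom and -0.50 to 0.41 with 1 mouse left out. With 1 mouse left out, Tnfrsf1a ranged from -0.14 to 0.0122 and Tnfrsf23 from -1.01 to 0.30. The cause of these shifts was not tested. No paired analysis was possible because the sample labels give no litter or other pairing of the mice. Few reads limit most ligands and the lymphocyte receptors, and for the 14 members under the filter a difference was not detectable at this depth unless it was large.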
